A study of Mus musculus with 4 samples.

Results

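Transcripts of 9 genes, *Oosp1*, *Oosp2*, *Oosp3*, *Oog1*, *Oog2*, *Oog3*, *Oog4*, *Omt2a* and *Omt2b*, were examined in germinal vesicle (GV) stage oocytes. The genes were chosen by name, as every listed transcript that carries the NCBI gene ID of a member, and the values were summed per gene. This gave 9 of the 17374 genes and 14 of the 45505 transcripts in the table: 3 Oosp genes, 4 oogenesin (Oog) genes and 2 Omt2 genes. Oocytes came from C57/Bl6 × DBA2J F1 hybrid females at post-natal day 16, without hormone priming. Their cumulus cells and zona pellucida were removed, and all were held at the GV stage with milrinone, which blocks the resumption of meiosis. The paper describes these oocytes as having chromatin of the NSN (non-surrounded nucleolus) type, which it gives for most oocytes at this age. Control oocytes (0 Gy) were compared with oocytes given 5 Gy of γ-irradiation from a caesium source and collected 24 h later, with 2 libraries in each condition from independent experiments and 59 oocytes per condition. How long control oocytes stayed in culture is not given in the sources used here, so that irradiation and time in culture cannot be told apart.

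The 3 families encode proteins of the growing mouse oocyte. Oosp proteins are small secreted proteins related to PLAC1, a placental protein with a domain like that of zona pellucida proteins. Oogenesins are leucine-rich repeat proteins of the PRAME family, which has expanded into many copies in the mouse genome and includes several genes active in oocytes and early embryos. Omt2a and Omt2b are a pair of small proteins known mainly from their abundant transcripts in oocytes.

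The genes lie in a few clusters, given here as positions in GRCm38.p6. *Oosp2* (gene ID 225922, chr19:11647284-11660559), *Oosp1* (170834, chr19:11667460-11691051) and *Oosp3* (225923, chr19:11697055-11711858) stand side by side within 64.6 kb, and *Oosp3* is read from the other strand. *Omt2a* (18379, chr9:78311972-78314797) and *Omt2b* (382088, chr9:78328030-78329620) are 13.2 kb apart on opposite strands. *Oog3* (100012, chr4:144157556-144162651) and *Oog2* (381570, chr4:144190717-144196934) are 28.1 kb apart, *Oog4* (242737, chr4:143437164-143450324) lies 707.2 kb from *Oog3*, and *Oog1* (193322, chr12:87602665-87608845) is the only one of the 9 on chromosome 12. In the GENCODE transcript that matches the most abundant listed one, *Oosp1* has 5 exons, *Oosp2* 4, *Oosp3* 6, *Oog2* 5, each of the other oogenesin genes 4, and each Omt2 gene 3. The coding sequences are 609, 507 and 588 bases long for *Oosp1*, *Oosp2* and *Oosp3*, between 1431 bases (*Oog2*) and 1509 bases (*Oog4*) for the oogenesins, and 303 and 360 bases for *Omt2a* and *Omt2b*.

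The promoters of the oogenesin genes were more alike than those of the other families. Over the 250 bases before the RefSeq start, identity between pairs of oogenesin promoters ran from 63.9 to 76.9% with gaps counted, against 48.0% for the Omt2 pair and 50.4% for *Oosp1* and *Oosp2*. Coding identity ran from 70.7 to 80.7% among the oogenesins, was 64.8% for the Omt2 pair, and ran from 47.8 to 53.8% among the Oosp genes. Over aligned bases alone, the coding identity of the Omt2 pair, 81.3%, was within the range of the oogenesins, 75.0 to 81.7%, and that of the Oosp genes was 63.3 to 66.2%. The 160 bases before the start are shown for the 4 oogenesin genes because these promoters share runs of identical letters in the same order. They were taken from RefSeq (GRCm38.p6) on the strand of the gene, at chr12:87602505-87602664 (+) for *Oog1*, chr4:144190557-144190716 (+) for *Oog2*, chr4:144162652-144162811 (-) for *Oog3* and chr4:143450325-143450484 (-) for *Oog4*. Capitals mark the words of at least 8 bases that all 4 promoters hold at the same spacing, within 2 bases.
Oog1: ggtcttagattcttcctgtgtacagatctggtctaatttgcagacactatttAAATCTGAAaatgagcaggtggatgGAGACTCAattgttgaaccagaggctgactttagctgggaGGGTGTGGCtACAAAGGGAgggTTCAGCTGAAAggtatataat
Oog2: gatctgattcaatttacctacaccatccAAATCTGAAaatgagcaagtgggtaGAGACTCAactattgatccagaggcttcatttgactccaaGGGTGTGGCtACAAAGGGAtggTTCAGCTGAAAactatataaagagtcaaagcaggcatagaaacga
Oog3: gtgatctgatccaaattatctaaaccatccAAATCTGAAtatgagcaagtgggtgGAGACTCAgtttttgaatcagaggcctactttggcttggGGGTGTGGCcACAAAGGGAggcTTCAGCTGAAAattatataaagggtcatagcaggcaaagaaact
Oog4: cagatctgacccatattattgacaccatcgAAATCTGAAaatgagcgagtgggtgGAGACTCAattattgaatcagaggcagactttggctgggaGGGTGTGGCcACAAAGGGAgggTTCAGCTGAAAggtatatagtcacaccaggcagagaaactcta

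The longest shared word, TTCAGCTGAAA, starts 45, 44 and 43 bases before the start of *Oog2*, *Oog3* and *Oog4* and 21 bases before that of *Oog1*. The RefSeq start of *Oog1* lies 30 bases before the GENCODE start, from which the word would stand 51 bases away. On either strand this word occurs in 0.0517% of the 32851 promoters in the table, each reaching from 250 bases before to 50 bases after the start, which belong to 16 genes. The other 4 words are more common, from 0.426% of promoters for AAATCTGAA to 1.43% for GAGACTCA, and 0 of the 5 words occurs in *Oosp1*, *Oosp2*, *Omt2a* or *Omt2b*. The 16 genes, looked up after the word had been found, include *Gm2042* and the PRAME-like genes *Pramel23*, *Pramel26* and *Pramel32*. These last 3 are 10.3% of the 29 PRAME-like genes with a promoter in the table, against 0.0592% of all 27025 genes in it.

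**Figure D1:**
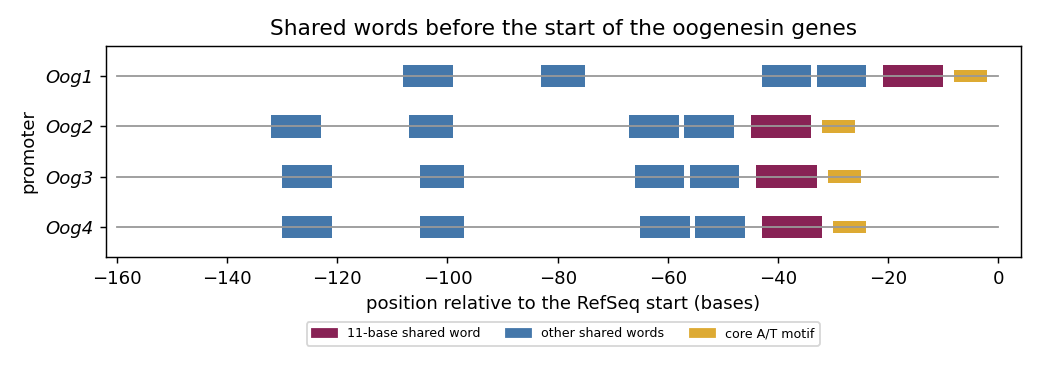
Shared words in the 160 bases before the RefSeq start (position 0) of the 4 oogenesin genes. Wide bars are the 5 shared words, dark red the one of 11 bases, and narrow yellow bars the motif TATATA. Only words with the same spacing within 2 bases in all 4 genes were kept, so that their like order and spacing follow from this choice. The whole row stands closer to the start in Oog1.

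Short motifs were also searched on both strands of the 8 member promoters in the table. The core TATA motif TATATA was found in all 4 oogenesin promoters, just after the longest shared word, and in 5.67% of all promoters. TATAAA was found in *Oog2* and *Oog3*, and in 13.6% of all promoters. An E box, CANNTG, the element bound by FIGLA and other basic helix-loop-helix factors, was present in 8 of 8 member promoters and in 72.3% of all. Its form CAGCTG lies inside the longest shared word and was found in the 4 oogenesin promoters and *Oosp2*, against 16.3% of all. TAATTG, a NOBOX-type homeobox element, was present in *Oog3*, *Oog4* and *Omt2b* (8.0% of all), and TAATTA in 0 of the 8 (5.29% of all). These matches describe letters in a window and no binding was measured.

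The libraries held between 33349466 and 37232818 estimated counts. Where 4 values follow each other below, they are in library order, the controls first and the irradiated libraries after them. The 9 genes took 1.6, 1.58, 1.53 and 1.28% of the counts. Irradiated library 2 stood apart. On the log2 scale of normalised counts, CPM, which are scaled for depth and by TMM factors but not for length, its Pearson r over genes with the other libraries was 0.9842 to 0.987, against 0.9956 to 0.9964 among the other 3. The 14 oocyte markers examined summed to between 49607.8 and 59539.5 TPM (a level corrected for transcript length, with equal totals in all libraries), lowest in irradiated library 2. Markers of granulosa and cumulus cells, 9 of 13 of them listed, summed to 16.8, 19.1, 16.7 and 22.4 TPM, and 3 of 5 theca and stroma markers to between 0.2 and 0.3 TPM. *Amh*, *Foxl2*, *Fst*, *Ptx3* and the blood markers were not analysed here. Since only oocytes were sequenced, restriction of these genes to the oocyte could not be examined.

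All 9 genes were among the abundant transcripts of the GV oocyte. *Omt2b* was the highest, at 7307 and 6537 TPM in control and 6878 and 5705 TPM in irradiated oocytes. Its mean TPM over the 4 libraries ranked 21 among 17374 genes. *Oog2* was the lowest, at 636 and 630 TPM in control and 650 and 581 TPM in irradiated oocytes. Its mean TPM ranked 248. The mean TPM of each of the other 7 ranked between 54 (*Omt2a*) and 131 (*Oosp3*). Together the 9 genes made up 2.34, 2.28, 2.27 and 1.86% of all TPM.

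In control oocytes the order of levels was *Omt2b*, *Omt2a*, *Oosp1*, *Oosp2*, *Oog1*, *Oog3*, *Oog4*, *Oosp3* and *Oog2*. The 2 control libraries kept neighbours in this order apart except for *Oosp2* and *Oog1*, whose ranges overlapped. In irradiated oocytes the order was *Omt2b*, *Oog3*, *Omt2a*, *Oosp2*, *Oog4*, *Oog1*, *Oosp1*, *Oosp3* and *Oog2*. Here 5 of 8 neighbouring pairs overlapped, and only *Omt2b* over *Oog3*, *Omt2a* over *Oosp2* and *Oosp3* over *Oog2* were separate. With 2 libraries per condition these orders are descriptions.

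**Figure D2:**
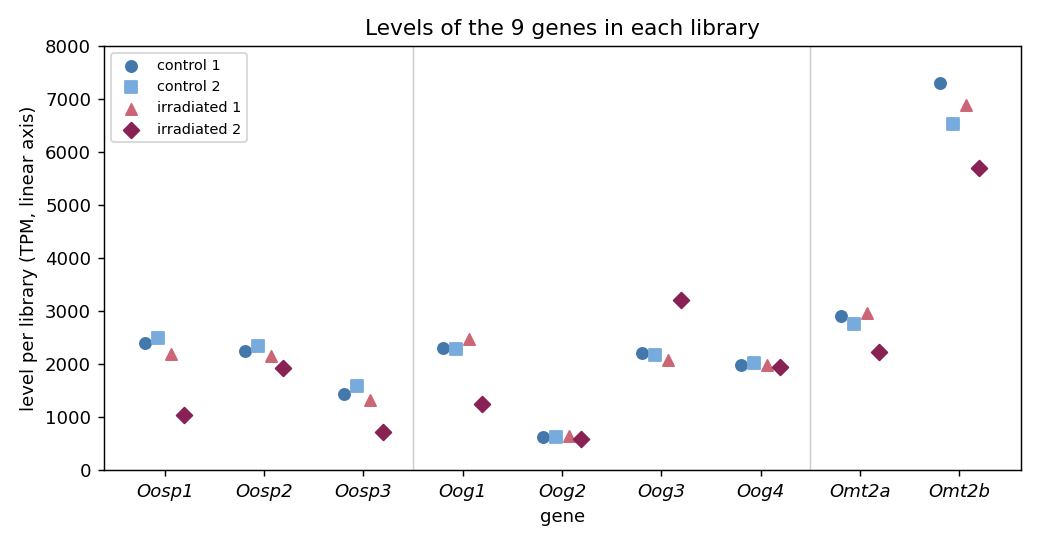
Level of each gene in TPM (vertical axis, linear) in the 4 libraries, 1 point per library, with the Oosp, Oog and Omt2 genes from left to right. Irradiated library 2 is the lowest point for 8 of the 9 genes and the highest for Oog3, at 3211 TPM.

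Among the Oosp genes, *Oosp1* and *Oosp3* were low in one irradiated library. *Oosp1* was present at 2400 and 2498 TPM in control oocytes and at 2200 and 1038 TPM in irradiated oocytes. *Oosp3* followed it, with 1428 and 1585 TPM in control and 1317 and 724 TPM in irradiated oocytes. *Oosp2*, the gene at the other end of the cluster, had 2257 and 2342 TPM in control and 2154 and 1918 TPM in irradiated oocytes. For all 3 genes both irradiated libraries lay below both control libraries, but irradiated library 1 was close to the controls. In CPM, both irradiated libraries lay below both controls for 19.9% of all genes tested. The ratio of *Oosp1* to *Oosp2* on the TPM scale was 1.06, 1.07, 1.02 and 0.541, and that of *Oosp3* to *Oosp2* was 0.633, 0.677, 0.612 and 0.377, so that irradiated library 2 differed from the other 3 in both.

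The oogenesins differed among themselves in the same library. *Oog1* had 2310 and 2282 TPM in control oocytes, and 2472 and 1247 TPM in irradiated oocytes. *Oog3* showed the opposite, with 2213 and 2170 TPM in control, 2073 TPM in irradiated library 1 and 3211 TPM in irradiated library 2. *Oog4* had between 1950 and 2018 TPM in all 4 libraries. Irradiated library 2 was thus low for *Oog1* and high for *Oog3*, while the other 3 libraries lay close together for every oogenesin. The 4 genes summed to 7138, 7099, 7175 and 6989 TPM. The likeness of these sums held for TPM alone, since in CPM they were 9432, 8845, 9080 and 6690, and *Oog4* had 2613, 2512, 2503 and 1865 CPM, lowest in irradiated library 2. The share of *Oog1* in this sum was 32.4, 32.1, 34.4 and 17.8%, and that of *Oog3* 31.0, 30.6, 28.9 and 45.9%. *Oog4* kept a share of 27.6 to 28.4% and *Oog2* one of 8.3 to 9.1%. The ratio of *Oog3* to *Oog1* was 0.958 and 0.951 in control oocytes and 0.839 and 2.57 in irradiated oocytes, so that the replicates of the irradiated condition fell on either side of the controls.

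**Figure D3:**
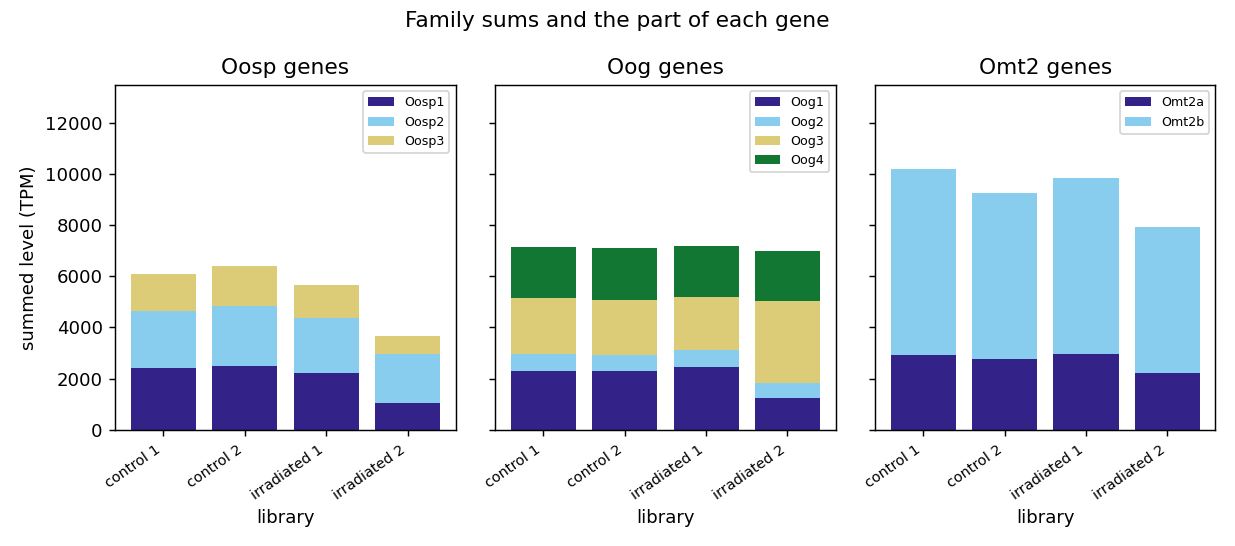
Summed TPM of the Oosp, Oog and Omt2 genes in each library (stacked bars from 0, 1 color per gene). In irradiated library 2 the Oosp sum is 3680 TPM, against at least 5672 TPM in the other libraries, and the Oog sum is 6989 TPM with less Oog1 and more Oog3. In CPM the Oog sum is also lowest in this library, at 6690.

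The Omt2 pair kept its internal ratio in all libraries. *Omt2a* had 2905 and 2750 TPM in control and 2965 and 2225 TPM in irradiated oocytes. *Omt2b* exceeded it 2.52- and 2.38-fold in control and 2.32- and 2.56-fold in irradiated oocytes. The sum of the pair was 10212, 9287, 9843 and 7930 TPM. As for the Oosp genes and *Oog1*, the lowest value belonged to irradiated library 2.

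Reads of near-identical copies bear on these levels. Of the 100-base windows of the *Oog1* transcript (the read length), 91.7% also occur in *Gm2042*, another gene on chromosome 12, and 0% in any other member. *Gm10436* holds 32.8% of these windows, *Gm13023* 4.7% and *C87977* 4.5%, and these genes were not analysed here. *Gm2042* was listed at 1359 and 1354 TPM in control and 1401 and 746 TPM in irradiated oocytes, 0.588, 0.594, 0.567 and 0.598 of the level of *Oog1*. How the authors' counting divided reads between the 2 genes is therefore uncertain, while their sum, 3668, 3636, 3873 and 1993 TPM, had the same low value in irradiated library 2. *Omt2a* and *Omt2b* share 16.8 and 31.9% of their windows with each other, *Oog2* shares 22.4% with *Gm13084* and *Oog3* 10.8% with *Gm4350*, 2 genes not analysed here. The Oosp genes and *Oog4* share 0% with any other GENCODE gene.

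Differences between conditions were tested to ask whether 5 Gy altered these transcripts within 24 h. Fold changes here are on the scale of CPM, not per length. CPM are relative within each library, so that a change in the number of cells or in total RNA per cell would not show. All 9 genes were tested, and 0 were called by the edgeR quasi-likelihood test with Benjamini-Hochberg adjustment, against 0.00796% of the 12569 genes tested. A call needed a log2 fold change beyond 2 in either direction together with an adjusted p below 0.05. At an unadjusted p under 0.05 there were 0 members, against 5.92% of all genes, 1.29% lower and 4.63% higher in irradiated oocytes, while DESeq2 gave 2, *Oosp1* and *Oosp3*, against 2.51% of all genes, and called 0. The exact test of edgeR and limma-voom each gave 0 members at either limit. At an unadjusted p under 0.05 they gave 6.28% and 5% of all genes, and they called 10 and 0 genes.

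The log2 fold change of irradiated against control oocytes was below 0 for 8 of the 9 genes, against 48.6% of all genes tested. It was lowest for *Oosp1*, which had 1302 ± 8.84 CPM (SD, n = 2 libraries) in control and 787 ± 527 CPM (SD, n = 2) in irradiated oocytes. Its log2 fold change was -0.73, with a standard error of 0.449, a 95% interval of -1.79 to 0.34 and an adjusted p of 0.709 in edgeR. *Oosp3* followed at -0.70 (standard error 0.388, adjusted p = 0.708 in edgeR) and *Oog1* at -0.45 (standard error 0.452, adjusted p = 0.765 in edgeR). The intervals of all 9 genes included 0. The other Oosp, oogenesin and Omt2 genes ran from -0.36 (*Oosp2*) to 0.02 (*Oog3*), with *Omt2a* at -0.33, *Omt2b* at -0.32, and *Oog2* and *Oog4* both at -0.23. The median of the 9 was -0.33, against 0.01 over all genes tested. Of the 14 oocyte markers, 11 were below and 3 above 0, with a median of -0.24, so that this direction was not particular to the 9 genes. In normalised counts, both irradiated libraries lay below both controls for *Oosp1*, *Oosp2*, *Oosp3* and *Oog4*, 4 of 9, against 19.9% of all genes, and above both controls for 0 of 9, against 22.1%.

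These differences rested on irradiated library 2. Without it the median of the 9 was -0.03, against 0.003 over all genes, *Oosp1* was at -0.17, *Oosp2* at -0.10, *Oosp3* at -0.20, *Oog4* at -0.03, *Omt2a* at 0 and *Omt2b* at -0.02, and *Oog1*, *Oog2* and *Oog3* turned in sign to 0.08, 0.03 and -0.10. With irradiated library 2 as the only irradiated library, the median was -0.70, *Oosp1* was at -1.66, *Oosp3* at -1.48 and *Oog1* at -1.32, and 8 of the 9 genes, all but *Oog3*, had an unadjusted p under 0.05 in edgeR, against 41.5% of all genes, in a fit that takes the lone library to vary like the controls. *Oosp1*, *Oosp3*, *Oog1* and *Omt2a* were more than 1.5-fold below the lowest of the other 3 libraries there, by 2.80-, 2.40-, 2.38- and 1.62-fold. 0 of the 9 genes were that far above the highest of the other 3, against 4.14% of all genes. The low values held for 3.54% of all genes tested. They held for 40.4% of the 225 genes at least as abundant in mean CPM as *Oosp3*, the lowest member on that scale. In each of the other 3 libraries 0 of the 9 genes stood this far below the rest. Why this library differed was not tested.

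**Figure D4:**
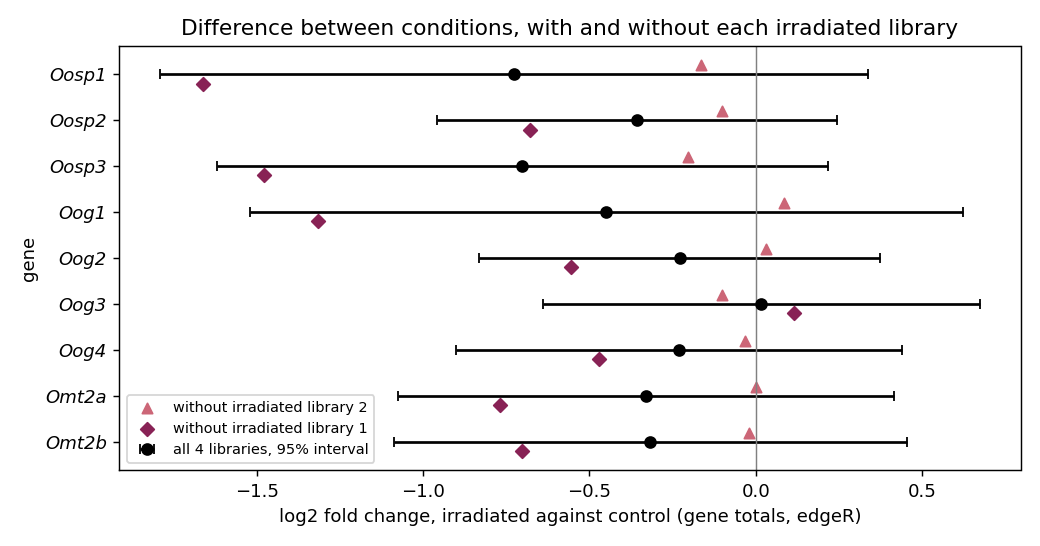
log2 fold change (horizontal axis) of irradiated against control oocytes for each gene, from all 4 libraries with its 95% interval (black), without irradiated library 2 (triangles) and without irradiated library 1 (diamonds). All 9 intervals include 0, and the triangles lie between -0.20 and 0.08.

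**Figure D5:**
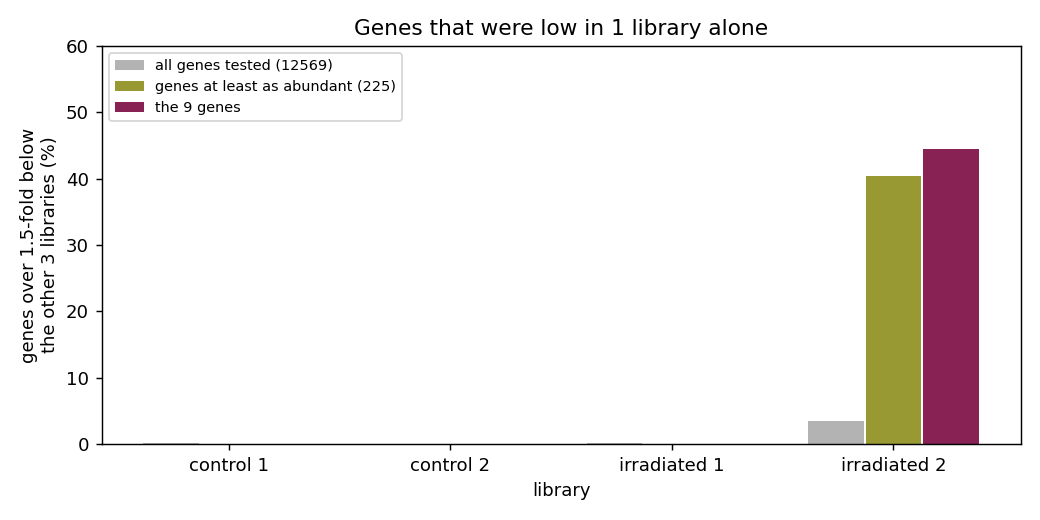
Percent of genes (vertical axis) whose normalised count in 1 library was more than 1.5-fold below the lowest of the other 3, for all 12569 genes tested (grey), the 225 genes at least as abundant in mean CPM as Oosp3 (olive) and the 9 genes (dark red). Irradiated library 2 holds 4 of the 9 genes and 40.4% of the abundant genes, and each other library holds 0 of both.

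The size of the differences depended on the scale. Library size alone in place of TMM factors raised the median of all genes to 0.17 and that of the 9 genes to -0.21, a difference of -0.38, and log2(TPM + 1) gave 0.145 and -0.14, a difference of -0.29. *Oog3* was at 0.19 with library size alone, near the shifted median. Its sign was the same under each scaling in edgeR, and turned with DESeq2, at -0.001, and with a library left out. Summed over each family in normalised counts, the log2 ratio of irradiated to control was -0.60 for Oosp, -0.32 for Omt2 and -0.21 for Oog. Without irradiated library 2 it was -0.16, -0.01 and -0.01.

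The shares of a gene's transcripts were similar in all libraries. The main transcript of *Oog1* held 83.2 and 82.0% of the gene's counts in control and 84.2 and 82.6% in irradiated oocytes. That of *Omt2a* held 79.8 and 81.2% in control and 76.9 and 80.6% in irradiated oocytes, and those of *Oog2* and *Oog4* 69.7 to 72.8% and 94.6 to 95.5%. Of the 4 genes with several listed transcripts, 0 showed a shift in transcript shares (diffSpliceDGE of edgeR, Simes adjusted p = 1 for each, with 0 at an unadjusted p under 0.05), against 0.253% and 6.12% of 6323 genes. All 14 member transcripts were tested singly, and 0 were called or had an unadjusted p under 0.05 in edgeR, against 0 and 4.9% of 26645 transcripts.

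Some other PRAME-like genes were abundant in the same oocytes. Of 36 listed genes, 9 had a mean above 100 TPM and 17 a mean under 1 TPM. Of these 36, 26 were tested, 12 had a log2 fold change above and 14 below 0, and 0 were called, with 2 at an unadjusted p under 0.05 in edgeR, *Pramel40* and *Pramel42*, named after their values were seen. Both were higher in irradiated oocytes, at 1.85 TPM or less. Their median was -0.14, and 0.01 without irradiated library 2. The most abundant was *Pramel25*, at 2920 and 2849 TPM in control and 3007 and 1562 TPM in irradiated oocytes. *Pramel29*, which adjoins *Oog2* at a distance of 9.8 kb, had 2168 and 2037 TPM in control and 2168 and 1164 TPM in irradiated oocytes. *Pramel26* had 2524 and 2530 TPM in control and 2587 and 2175 TPM in irradiated oocytes. *Pramel25* and *Pramel29* thus had low values in irradiated library 2 and values near the controls in irradiated library 1, as *Oog1* did.

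Transcripts of the egg coat and of secreted oocyte factors were also examined. Of 7 genes, all tested, 4 had a log2 fold change above and 3 below 0, 0 were called and 0 had an unadjusted p under 0.05 in edgeR. *Zp2*, a zona pellucida protein that binds sperm, had 4290 and 4452 TPM in control and 4115 and 1937 TPM in irradiated oocytes. *Zp3*, its partner in the egg coat, had 10914 and 11773 TPM in control and 11548 and 15620 TPM in irradiated oocytes. *Gdf9*, a growth factor that acts on granulosa cells, had 5918 and 5582 TPM in control and 6980 and 4474 TPM in irradiated oocytes. Irradiated library 2 was therefore low for *Zp2* and *Gdf9* and high for *Zp3*. *Plac1*, the relative of the Oosp genes, was listed at 1.07, 1.65, 0.66 and 2.84 TPM, a low level.

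Of 9 transcription factors of the oocyte, all tested, 6 had a log2 fold change above and 3 below 0, 0 were called and 0 had an unadjusted p under 0.05 in edgeR. *Nobox*, a homeobox factor that drives many oocyte genes, had 398 and 440 TPM in control and 468 and 1215 TPM in irradiated oocytes. It differed by 0.71 on the log2 scale (standard error 0.33, adjusted p = 0.708 in edgeR), and by 0.14 without irradiated library 2. *Figla*, the basic helix-loop-helix factor of zona gene expression, had 178 and 180 TPM in control and 159 and 166 TPM in irradiated oocytes. *Lhx8*, a LIM homeobox factor needed for early folliculogenesis, had 52.8 and 63.1 TPM in control and 65.2 and 85.3 TPM in irradiated oocytes. The high *Nobox* value stood in irradiated library 2, in which *Oosp1*, *Oosp3* and *Oog1* were low and *Oog3* was high. A link between these values was not tested.

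Genes next to the clusters had low levels, apart from *Pramel29*. On the outer sides of the Oosp cluster, *Ms4a3* was at 0.25 to 0.36 TPM and *Cblif* at 0.19 to 0.82 TPM. *Gsta2*, which lies 1.4 kb from *Omt2b*, was at 3.85 to 5.80 TPM, and *Gm10639*, on the other side of the Omt2 pair, at 2.16 to 4.47 TPM. Around the oogenesins, *Pramel12*, *Gm4027*, *Gm8300*, *Gm13043* and *Gm13102* reached at most 4.46 TPM. Only the nearest listed gene on either side was examined, so that levels further from the clusters are not described here.

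The genes whose values over the 4 libraries were most like those of each family were ranked among 5771 genes, by the Euclidean distance between centred log2 normalised counts. For the Oosp sum they were *Plac8* (distance 0.0232), *Rps26* (0.0871) and *Rpl23a* (0.0935), the only 3 genes within 0.1. *Plac8* had 995, 994, 898 and 428 CPM. For the Oog sum they were *Vkorc1*, *Zfp960* and *Rest*, with 239 genes within 0.1, and for the Omt2 sum *Rbm25*, *Mettl7a3* and *Dnajc7*, with 68 genes within 0.1. With 4 libraries, of which 1 stood apart, this likeness is a description.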

How the data were processed

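RNA-seq of GV oocytes was analysed in 4 libraries, grouped by the condition and number in the sample titles. The paper gives 2 independent experiments, and p-values measure the spread between these 2 libraries per condition. Trimmed reads were aligned by the authors with Bowtie2 to GRCm38. The estimated counts that they deposited, 1 per RefSeq transcript and library, are not scaled for depth. The submitters' processing notes also name HISAT2, RSEM and mm10, without roles. The authors' deposited TPM values are corrected for transcript length and scaled to 1 total per library. The authors also deposited FPKM values, scaled for transcript length and depth, and averages, 10 columns in all that were not used here.

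Gene totals were summed over transcripts, rounded, filtered (filterByExpr, minimum count 10), scaled with TMM factors (0.923, 0.975, 0.937 and 1.185) and compared by the quasi-likelihood test (glmQLFit, glmQLFTest) of edgeR 4.0.16 under R 4.3.3, with Benjamini-Hochberg adjustment over all features. DESeq2 1.42.0, limma 3.58.1, the exact test, other scalings and leaving out each library were alternatives. The tests were checked on simulated counts. Counts of calls without 1 library, and rounding before summing, were added after the data had been seen. The 9 genes and the related lists were chosen with earlier results of these data known. Named genes are the 9 members, up to 3 with the highest mean TPM of each list, the nearest listed gene on either side, and the 3 most alike per family, and others were named after their values were seen.

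Gene IDs were matched to RefSeq (GRCm38.p6, 17323 of 17374), promoters to RefSeq for 8 of 9 members, and transcripts to GENCODE for GRCm38. Promoters and coding sequences were aligned globally with Biopython 1.88. Figures were drawn with matplotlib 3.10.9.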

Additional observations from a re-analysis of the deposited data

How the results depend on the processing

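In the settings run, 15 for gene totals, 6 for transcripts and 3 for transcript shares, 0 members were called. Members at an unadjusted p under 0.05 numbered 1 with no filter on low counts (*Oosp3*; 6.89% of all genes), 2 in DESeq2 (2.51%) and 2 with the replicate number as a block (10.3%; *Oosp1* and *Oosp3* in both), against 0 in the main test (5.92%), and ran from 0 to 8 as each library was left out, with the 8 (41.5%) without irradiated library 1. Over all genes, the calls numbered 1 in the main test, 0 to 10 under other settings and 16 to 84 with a library left out. The design allows rounding before or after summing, and rounding transcripts before summing them was first tried and then set aside with its results known. Summing first was kept because it gave the number of genes tested in earlier results of the whole series. Rounding first tested 12570 genes, called 1 gene and 0 members, and turned no member's sign. Calls among the related genes ran from 0 to 2 as each library was left out: *Pramel42* and *Pramel35* without control library 2, and *Pramel42* and *Pramel40* without irradiated library 1. The sign turned in 5 of 126 member values: *Oog3* was at -0.001 in DESeq2, -0.043 without control library 2 and -0.101 without irradiated library 2, where *Oog1* was at 0.084 and *Oog2* at 0.03. As each library was left out, *Oog3* ran from -0.101 to 0.115, *Oog1* from -1.316 to 0.084 and *Oog2* from -0.555 to 0.03. The cause was not tested. In the order of mean levels, 1 of the 9 genes kept its place in CPM, which are not per length, and 5 to 7 kept it as each library was left out.

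Libraries with the same number did not clearly pair: the differences between replicates 2 and 1 of both conditions correlated at 0.177 over 12569 genes, with only 2 pairs. A left-out fit takes the lone library to vary like the other condition. With 2 libraries per condition, the 95% intervals of the members spanned folds of 0.289 to 1.26 for *Oosp1* and 0.514 to 1.18 for *Oosp2*. Changes within these limits remained compatible with the data. The counting program and the sharing of reads among near-identical genes are limits on *Oog1*, *Oog2*, *Oog3* and the Omt2 pair.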
